A study of Rattus norvegicus with 176 samples.

Results

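The proteins of the cytosolic ribosome were followed at the level of their mRNA in livers of F344 rats given clofibric acid (CA) over long times. CA is a lipid-lowering drug of the fibrate class and an agonist of PPARalpha, a nuclear receptor of liver. Members were all genes whose symbol in the annotation of the array is Rpl or Rps followed by a number, with Rplp0, Rplp1, Rplp2 and Rpsa and without the Rps6k kinases. The rule found 44 genes with a probe set of their own among 10411 such genes, and the probe set with the highest mean log2 value stood for each gene. Of these, 42 passed the filter on dim probe sets and were tested, 28 of the large and 14 of the small subunit. Rpl30 and Rpl3l did not pass it. A further 34 probe sets carried ribosomal protein symbols together with other genes and are described only as a group, without names. Rps18, Rpl32 and Rps27a, often used as reference genes, had no probe set of their own.

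Total RNA from liver sections was hybridized to Affymetrix arrays of 15922 probe sets. The arms were control, CA, DEN and DEN-CA, where DEN usually stands for diethylnitrosamine, a carcinogen of liver. Each arm had 5 rats at each of the times 5j, 1m, 3m, 9m and 12m, and the first 2 arms had 5 more at 18m. Control and DEN groups of 5 rats each carried the time -8 without a unit, and 6 CA rats were labelled 18 without a unit. Groups tagged rev held 3 control and 4 CA rats at 18m, and 4 control, 6 DEN and 5 DEN-CA rats at 12m, where the DEN labels gave the number without a unit. These arrays were of untagged sections, 1 for each rat, and 23 TU sections from 16 of the rats and 5 PERI sections from 5 of them were measured as well. What j, rev, TU and PERI mean was not stated, nor were sex and age. Also unexplained were a B suffix on 46 of the untagged arrays and on some TU arrays of DEN-CA rats of 9m. A bis suffix on a few untagged arrays was not explained either. The titles named 5000 ppm CA for control rats too, so a dose by group cannot be given. Albumin, the main secreted protein of hepatocytes, ran from 9188 to 51417 scaled units over all arrays, and no hepatocyte marker was listed at 0.

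A cytosolic ribosome is built in the nucleolus from ribosomal RNA and a fixed set of ribosomal proteins, and its small subunit reads the mRNA while the large subunit joins amino acids. Most mRNAs of ribosomal proteins begin with a cytosine followed by a run of pyrimidines, the 5' terminal oligopyrimidine tract, through which the kinase mTOR and the protein LARP1 control their translation together. Hepatocytes make much secreted protein and hold many ribosomes, and ribosome production rises in growing liver and in many tumours. PPARalpha agonists enlarge the rodent liver and over long times cause tumours there.

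The bases around the annotated start were read for members to look for runs of pyrimidines, which most members held and the choice of members did not use. RefSeq promoter sequences of the GRCr8 build were found for 39 of the 44 members. The windows below hold 30 bases before and 30 bases after the annotated start, on the strand of the gene, and capitals mark the longest run of C and T where it reached 8 bases. Rpl4, Rpl27a, Rplp0 and Rpl13a are shown as core members that rose, Rpl12 as the member with the largest rise, and Rpl39, Rps27l and Rpl7l1 as members that behaved otherwise. They lie at chr8:73566447-73566506 (plus strand, Rpl4), chr1:172974543-172974602 (plus strand, Rpl27a), chr12:46718361-46718420 (minus strand, Rplp0), chr1:104748884-104748943 (minus strand, Rpl13a), chr3:36661910-36661969 (plus strand, Rpl12), chrX:121195867-121195926 (minus strand, Rpl39), chr8:76443628-76443687 (plus strand, Rps27l) and chr9:21695688-21695747 (plus strand, Rpl7l1).
Rpl4: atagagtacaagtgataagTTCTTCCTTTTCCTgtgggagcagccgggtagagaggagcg
Rpl27a: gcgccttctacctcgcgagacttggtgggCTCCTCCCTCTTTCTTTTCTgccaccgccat
Rplp0: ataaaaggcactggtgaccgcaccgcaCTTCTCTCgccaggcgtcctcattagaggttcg
Rpl13a: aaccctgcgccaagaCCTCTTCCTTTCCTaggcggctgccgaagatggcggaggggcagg
Rpl12: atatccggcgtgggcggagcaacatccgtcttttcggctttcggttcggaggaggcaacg
Rpl39: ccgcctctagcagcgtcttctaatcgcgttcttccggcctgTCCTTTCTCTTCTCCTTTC
Rps27l: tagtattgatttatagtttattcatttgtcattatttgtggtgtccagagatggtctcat
Rpl7l1: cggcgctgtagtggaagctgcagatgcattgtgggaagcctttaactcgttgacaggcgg

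A run of 8 or more C and T bases lay within these windows in 27 of 35 core members (77.1%), against 20.3% of 7968 other genes tested, 22.7% of 1114 other genes of the brightest 10th and 23.2% of 33469 promoters of the table. Of 4 paralogs (Rps27l, Rpl3l, Rpl7l1 and Rps4y2), 2 held such a run. In the 300-base entries, from 250 bases before to 50 after the start, AAGATGG was found on either strand in 22.9% of the core members, 8.30% of other genes tested, 8.35% of other bright genes and 7.01% of all promoters. CCGGAAG was found in 22.9%, 16.6%, 14.6% and 8.75% of these, and CACGTG in 8.57%, 9.22%, 10.3% and 6.42%. TATAAA on the given strand was found in 8.57%, 5.25%, 6.37% and 8.80%. The letters AGGTCA repeated with 1 base between, the form PPARalpha binds, were found on either strand in 0 of the 35 core members and in 0.0538% of all promoters. These are matches of letters and were not set against the expression changes. The run was 3 to 24 bases long over the core members (median 12), with 7 bases in Rpl12 and 19 in Rpl39. Runs were counted anywhere in the window and began, from the annotated start, at -15 in Rpl13a and at 11 in Rpl39. The 77.1% is therefore not the share of mRNAs that begin with the tract.

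Ribosomal protein mRNAs were among the brightest on the arrays. Of the 40 core members, 38 lay in the brightest 10th of all probe sets, the exceptions being Rpl39 at the 63rd and Rpl30 at the 23rd percentile. Of the paralogs, Rpl7l1 lay at the 86th, Rps27l at the 81st, Rps4y2 at the 44th and Rpl3l at the 5th percentile. The members also varied together: over all untagged arrays, 1 from each rat of 30 groups, the deviations of tested members from their group means had a median correlation between pairs of 0.67, against 0.38 between 1233 other genes of the brightest 10th and 0.40 between the members and those genes. These values share arrays and scaling and are a description only. The correlation of a member with the mean of the others ran up to 0.93 for Rpl35, and was 0.37 for Rps27l, 0.23 for Rps4y2 and -0.40 for Rpl39.

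Because so many bright probe sets move together, scaling matters for them. The medians of the deposited arrays ran from 25.4 to 187.2 units, so each array was scaled to a common median and every change is relative to the median gene. The CA arm ran lower (25.4 to 171, median 85.8) than the control arm (50.6 to 151, median 103), and the 5 CA rats of 3m had a median of 43.5 against 90.4 in their controls. One untagged section was high within its group. Rat 4137 of CA at 12m had an index, the mean over 42 members of log2(scaled intensity + 25), of 12.07. The other CA rats of 12m reached up to 11.72, and the TU and PERI sections of rat 4137 had 11.46 and 11.44. The member counts of CA at 12m, of TU sections of CA rats and of PERI sections are given with and without this rat. Within groups the index had a pooled SD of 0.18. In bulk liver, fewer cells of a type and less RNA per cell cannot be told apart. The labels give a rat number to each section, so replicates were separate animals.

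**Figure D1:**
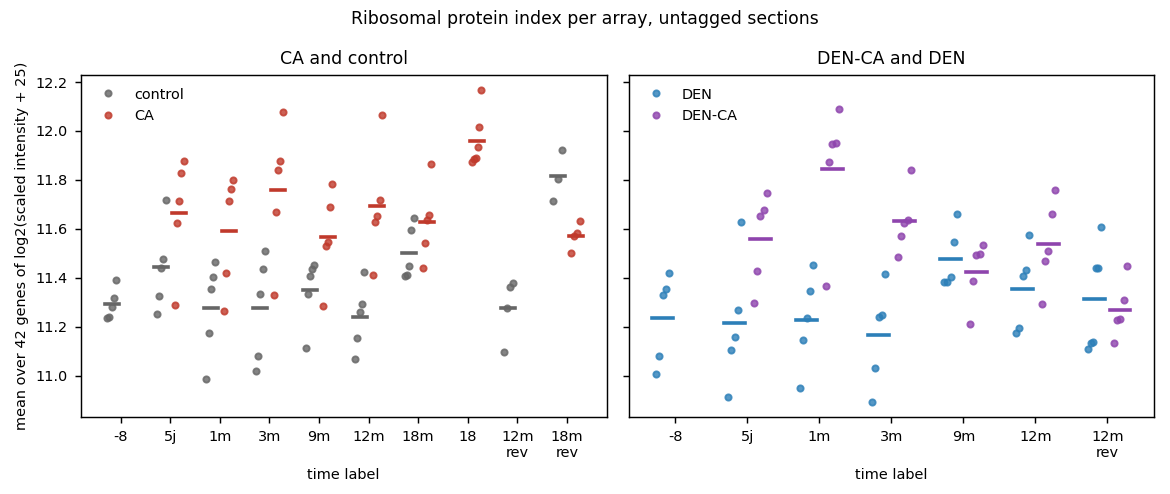
Mean over 42 ribosomal protein genes of log2(scaled intensity + 25) for each untagged array (points) with the group mean (bar), by time label, for CA and control rats (left) and DEN-CA and DEN rats (right). CA rats labelled 18 sit between 11.87 and 12.17, all above the controls of 18m, and the CA rats of 18m rev sit below their controls.

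Cytosolic ribosomal protein mRNAs were higher in livers of CA rats than in controls, by a similar modest factor in almost all members. Averaged over 6 times, 36 of 42 members rose and 1, Rps27l, fell. The median change of the 42 was 0.33 on the log2 scale (1.26-fold), against a median of -0.01 for all genes tested. Of all genes tested, 18.8% were called higher and 22.6% lower, and of the other genes of the brightest 10th 26.4% were called higher and 32.4% lower. The rise took in 24 of 28 members of the large and 12 of 14 of the small subunit, and 28 of the 34 shared probe sets. Calls were made with limma across all genes at an adjusted p of 0.05, and fold changes are on the log2(scaled intensity + 25) scale, which shrinks those of dim genes.

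Rpl12, a protein of the base of the stalk on the large subunit where elongation factors dock, had the largest mean rise. At 3m its scaled intensity was 1639, 1758, 2155, 2717 and 2817 in controls (2217 ± 538, SD, n = 5) and 2555, 4115, 4646, 5237 and 5707 in CA rats (4452 ± 1218, n = 5). Only 1 CA rat fell within the range of the controls. Rpl12 rose by 0.65 ± 0.08 (SE) in the mean over times (1.57-fold, limma adjusted p = 8.2e-12) and by 0.98 ± 0.20 at 3m (adjusted p = 8.7e-05). It passed the test at 1m, 3m, 9m and 12m.

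Rpl4, a large subunit protein that lines the exit tunnel for the growing chain, was the second of the core members. Its values at 12m were 2892, 2931, 2935, 3263 and 3809 in controls and 4389, 4822, 4992, 5389 and 6487 in CA rats, with no overlap. The mean rise of Rpl4 was 0.53 ± 0.06 (1.44-fold, limma adjusted p = 1.1e-14). Rps28 (0.52 ± 0.07), Rpl27a (0.47 ± 0.05), Rps4y2 (0.43 ± 0.11) and Rplp0 (0.42 ± 0.07) followed by size. Rps4y2, a paralog of Rps4x, is dim, with 34.5 to 82.0 in controls and 50.9 to 193 in CA rats at 12m, and its groups overlapped there.

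Other members known for a role of their own behaved alike. Rplp0, the acidic stalk protein, ran at 2319, 2357, 2675, 2758 and 3492 in controls of 12m and at 3348, 3532, 3639, 3871 and 6453 in CA rats, where the ranges overlapped by a single rat on each side. Rps6, the small subunit protein that S6 kinase phosphorylates, ran at 4367, 4404, 4445, 5216 and 5299 in controls of 12m and at 5696, 6492, 6845, 6944 and 7599 in CA rats, all above the controls. In the mean over times Rps6 rose by 0.38 ± 0.06, Rpl3, which shapes the peptidyl transferase centre, by 0.39 ± 0.06, Rpl13a, also known for silencing inflammatory mRNAs, by 0.35 ± 0.07 and Rpsa, also described as the laminin receptor, by 0.26 ± 0.06. Rpsa had 2 more probe sets of its own, which rose by 0.19 ± 0.07 (limma adjusted p = 0.014) and 0.30 ± 0.07 (adjusted p = 2e-04).

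The 6 members that did not rise included the paralogs Rps27l and Rpl7l1 and the dim Rpl39. Rps27l, a paralog of Rps27 induced by p53, fell by 0.24 ± 0.07 (limma adjusted p = 0.0047). At 9m it ran at 425, 441, 456, 457 and 474 in controls and at 224, 283, 327, 352 and 488 in CA rats, so that 4 of 5 CA rats were below all controls, although no single time passed the test. Values that did not pass were 0.27 ± 0.12 for Rpl37a (limma adjusted p = 0.058), 0.12 ± 0.07 for Rps29, 0.09 ± 0.06 for Rpl18, -0.03 ± 0.09 for Rpl39 and -0.12 ± 0.07 for Rpl7l1. A second probe set of Rpl7l1 was lower (-0.17 ± 0.07, limma adjusted p = 0.032). Rpl39, the small exit tunnel protein that went against the other members across arrays, ran at 181 to 193 in controls of 12m and at 123 to 239 in CA rats, which overlapped.

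**Figure D2:**
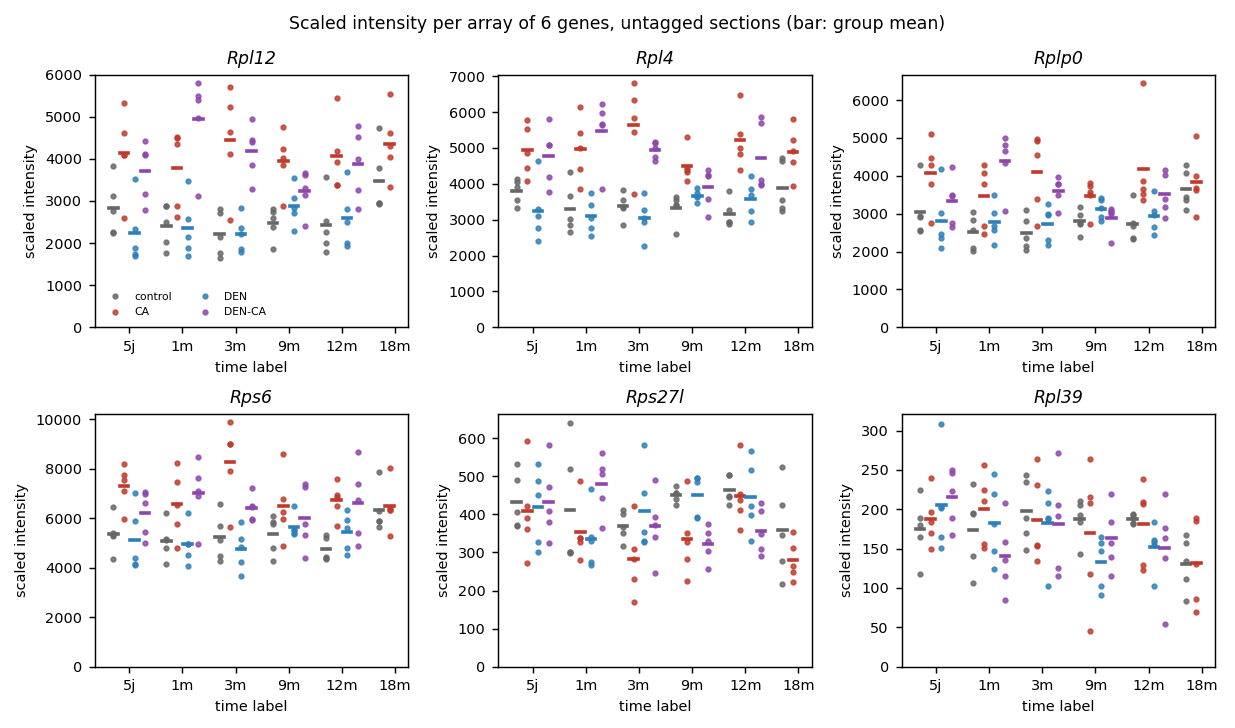
Scaled intensity (linear, axes start at 0) of Rpl12, Rpl4, Rplp0, Rps6, Rps27l and Rpl39 on each untagged array without rev, by time label and arm, with a bar for the group mean. Rpl12 and Rpl4 are higher in CA and DEN-CA rats at most times, a single Rplp0 point of CA rats at 12m reaches 6453, and Rps27l and Rpl39 were called higher at 0 times in CA rats.

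By time, the count of members called higher moved between 0 and 30, and the medians show a smaller spread. At 5j 5 members rose (median 0.26), against 4.1% of all genes called higher, at 1m 13 (median 0.33, 5.45% of all genes), at 3m 30 (median 0.51, 6.97%), at 9m 2 (median 0.27, 4.55%), at 12m 30 (median 0.48, 7.29%) and at 18m 0 (median 0.12, 3.69%). The unadjusted limma p was under 0.05 for 20, 27, 36, 15, 36 and 6 members at these times. Other genes of the brightest 10th were called higher in 7.7%, 9.65%, 13%, 5.84%, 11.8% and 5.84% at the same times. The direction at 3m rested on scaling, since without it 9 members were called lower in CA rats, whose arrays had the low medians given above. At 18m only Rpl7l1 passed, and it fell by 0.51 ± 0.16 (limma adjusted p = 0.037, 3.57% of all genes called lower). Its values were 611, 630, 721, 752 and 779 in controls and 394, 447, 486, 521 and 579 in CA rats, with no overlap. That call was lost without any of CA rats 4142, 4144 and 4145 or controls 4036, 4038 and 4040. The 2 calls at 9m and the 1 at 18m lay near or under the share of all genes. The CA effects at 18m and 5j differed for 0 members (2 with an unadjusted p under 0.05, median difference -0.14), and 0.664% of all genes were called.

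Single rats weighed heavily on these counts. At 12m every CA value lay above every control value for 14 members (4.84% of all genes), with indices of 11.41 to 12.07 in CA rats and 11.07 to 11.42 in controls. Without rat 4137 this count was again 14 (6.72% of all genes), and the CA indices ran up to 11.72. Without CA rat 4140, the lowest, it was 30 (6.6% of all genes). Without rat 4137 the count of members that rose at 12m was 15 in place of 30, while the median was 0.38. At 3m leaving out 1 rat gave 21 to 33 members. At 1m it gave 5 to 20, with 5 to 7 without any of CA rats 4123, 4124 and 4125 or controls 4014 and 4015 and 20 without CA rat 4122. At 5j it gave 2 or 3 without any of CA rats 4117, 4120 and 4121 or controls 4007, 4008 and 4009, 9 without control 4010 and 14 without CA rat 4118. At 9m it gave 0 without CA rat 4132 or control 4027 and 1 without CA rat 4136. The mean over 6 times did not rest on any 1 rat: 36 to 38 members were called whichever of 60 rats was left out.

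The CA rats labelled 18 were well apart from control livers. Against the controls of 18m, 30 of 42 members rose (median 0.51, 1.42-fold), with 13.9% of all genes called higher. Among other genes of the brightest 10th, 26.8% were called higher and 11% lower. Of the 34 shared probe sets 30 rose. Rpl23a, which sits beside the exit of the tunnel and binds factors that reach the growing chain, ran at 1817, 1889, 2066, 2450 and 2595 in controls and at 3280 to 4801 (median 3795) in the 6 CA rats, with no overlap. Rpl23a rose by 0.84 ± 0.14 (limma adjusted p = 5.7e-07), Rpl23 by 0.76 ± 0.13, Rpl12 by 0.74 ± 0.19, Rps4y2 and Rps24 by 0.71 each and Rpl27a by 0.66 ± 0.12. Rplp0, Rps6, Rpsa and Rpl3 rose by 0.40 to 0.55, while Rpl13a (0.32 ± 0.16, limma adjusted p = 0.14), Rps27l (0.20 ± 0.17) and Rpl7l1 (-0.28 ± 0.16) did not pass. For 28 members every array of the CA rats lay above every control array, against 10.2% of all genes. The controls of 18m also served the comparison at 18m, whose CA rats had a median of 0.12, and whether the label 18 means the same time is not stated. With no scaling of the arrays 0 members passed (median 0.13, all genes -0.27).

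In the DEN arms the ribosomal protein mRNAs were raised with CA by a similar median. Averaged over 5 times, 37 of 42 members rose in DEN-CA against DEN rats and none fell (median 0.32, 1.25-fold), with 21.1% of all genes called higher. The 25 large and 12 small subunit members that rose included 36 that rose in CA rats without DEN. The largest rises were those of Rpl12 (0.70 ± 0.09, limma adjusted p = 2.1e-11), Rps4y2 (0.64 ± 0.12), Rpl4 (0.51 ± 0.06), Rps28 (0.46 ± 0.08), Rpl35 (0.44 ± 0.08) and Rps24 (0.43 ± 0.07). Those that did not pass were Rps29 (0.18 ± 0.08, limma adjusted p = 0.058), Rpl18, Rpl39, Rpl7l1 and Rps27l, the last 4 between -0.07 and 0.07. The difference of the CA effects with and without DEN passed for 0 members (0 with an unadjusted p under 0.05 as well, median difference -0.03), and 0.0115% of all genes were called.

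Most calls under DEN-CA were made at 5j, 1m and 3m. At 1m Rpl12 ran at 1690, 1894, 2149, 2578 and 3485 in DEN rats and at 3113, 4963, 5405, 5501 and 5795 in DEN-CA rats, where only the lowest DEN-CA rat overlapped. It rose by 1.08 ± 0.20 (2.11-fold, limma adjusted p = 1e-05), and 37 members rose in all (median 0.65, 1.57-fold, 12.2% of all genes). At 1m Rps27l rose as well (0.49 ± 0.18, limma adjusted p = 0.048). At 5j 14 members rose (median 0.36, 7.43% of all genes) and at 3m 32 (median 0.47, 11.2%). Rpl4 at 3m ran at 2269, 2921, 3035, 3268 and 3746 in DEN rats and at 4630, 4760, 4989, 5149 and 5172 in DEN-CA rats, well apart. Every DEN-CA array lay above every DEN array for 17 members at 3m (7.64% of all genes) and for 14 at 1m (4.71%). At 9m 0 members passed (1 with an unadjusted p under 0.05, median -0.05, 2.4% of all genes) and at 12m only Rpl12 did (0.59 ± 0.20, limma adjusted p = 0.047, median of the members 0.17, 3.57% of all genes).

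These counts also moved with single rats. At 1m 32 to 38 members were called without 1 rat. At 3m 16 were called without DEN rat 4063, 18 without DEN-CA rat 4099 and 19 without DEN rat 4064. At 5j 5 were called without DEN rat 4053, 6 without DEN-CA rat 4086 or 4087, 8 without DEN rat 4056 and 24 without DEN rat 4057. At 12m the call of Rpl12 was lost without any of DEN rats 4073, 4074 and 4076 or DEN-CA rats 4108 and 4110, and 3 members were called without DEN rat 4077 or DEN-CA rat 4106. At 9m the B suffix was on 4 of 5 DEN-CA arrays and 1 of 5 DEN arrays, so it lay unevenly there. It was on 4 of 5 DEN-CA arrays at 1m and 3m as well, and on 0 at 12m. Over arrays without the suffix the median of the members in the mean over times was 0.20, and over arrays with it 0.30. These means rest on unlike times and on few rats in some groups.

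**Figure D3:**
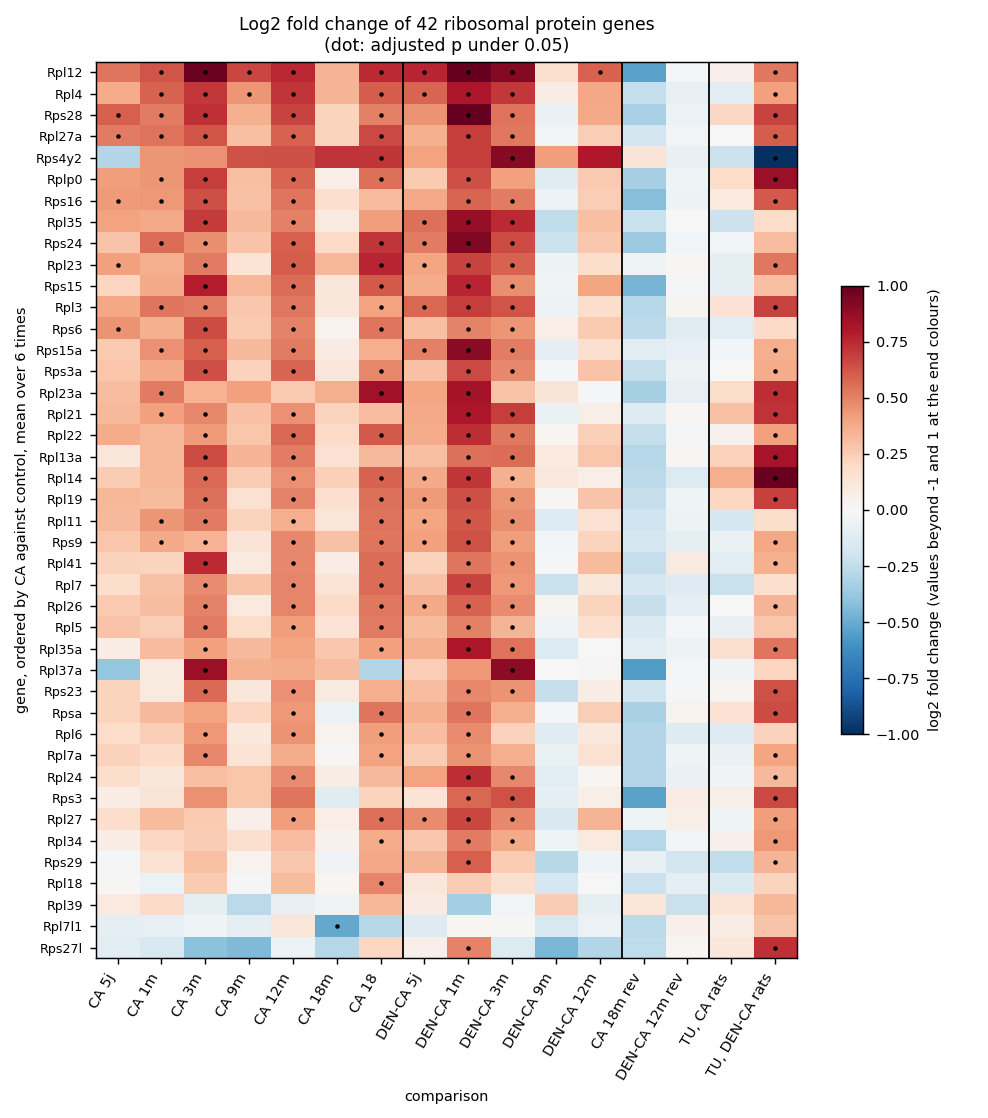
Log2 fold change of 42 ribosomal protein genes (rows, ordered by the mean CA effect) in 16 comparisons (columns), with a dot where the limma adjusted p was under 0.05. The columns of CA at 3m and 12m, CA labelled 18, DEN-CA at 1m and 3m and TU sections of DEN-CA rats hold most of the dots, and the rows of Rpl39 and Rpl7l1 hold few dots, while Rps27l has dots for DEN-CA at 1m and for the TU sections of DEN-CA rats.

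No ribosomal protein mRNA passed the test in DEN rats without CA at the times tested here. Averaged over 5 times 0 members passed (1 with an unadjusted p under 0.05, median -0.03), and 0.0115% of all genes were called. At 5j, the time of the largest median (-0.24), 0 passed although 13 had an unadjusted p under 0.05, and 0.0344% of all genes were called. At -8 0 passed as well (2 with an unadjusted p under 0.05, median -0.08, 0.309% of all genes). The member with the highest value at -8 was Rps27l, at 326, 346, 361, 369 and 453 in controls and at 429, 554, 625, 672 and 772 in DEN rats, where a single DEN rat overlapped. Its change was 0.67 ± 0.18 (limma adjusted p = 0.072). One member was called at -8 without DEN rat 4048.

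In the rev groups no member passed in the CA or DEN-CA arm against its own control. Against controls of 18m rev, 0 members passed in CA rats of 18m rev (5 with an unadjusted p under 0.05, 0.847% of all genes called), but the median was -0.24 and for 16 members every CA array lay below every control array, against 4.42% of all genes. Rpl12 ran at 4513, 4693 and 5079 in the 3 controls and at 2899, 2944, 3443 and 3918 in the 4 CA rats, with no overlap (-0.53 ± 0.24, limma adjusted p = 0.41). Rplp0 ran at 4939, 5006 and 5105 in those controls and at 3870, 3876, 3876 and 4271 in those CA rats, also apart. Here the controls stood out: their index of 11.71 to 11.92 lay above that of the controls of 18m without rev (11.41 to 11.65), while the CA rats of 18m rev had 11.50 to 11.63. In DEN-CA against DEN rats of 12m rev 0 members passed (0 with an unadjusted p under 0.05, median -0.04, 0.126% of all genes).

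Against rats of the same time without rev, a few members were lower in the DEN-CA arm. In DEN-CA rats of 12m rev 6 members fell (5.31% of all genes called lower), namely Rpl4, Rps15, Rpl12, Rps16, Rpl19 and Rps3a, and all 6 were among those that rose in DEN-CA rats. Rpl4 ran at 3961, 3999, 4117, 5705 and 5871 in DEN-CA rats of 12m and at 2700, 2824, 3065, 3383 and 3432 in those with rev, with no overlap, and fell by 0.60 ± 0.14 (limma adjusted p = 0.0011). The other 5 fell by 0.39 to 0.56. This count was 1 without DEN-CA rat 4109 and 15 without DEN-CA rat 4106. With no scaling of the arrays its direction turned: the median was 0.37 against 0.53 for all genes, and 1 member was called, higher. In CA rats of 18m rev against CA rats of 18m, Rpl21 fell by 0.67 ± 0.14 (limma adjusted p = 0.00023), from 1259, 1440, 1471, 1551 and 1977 to 905, 923, 933 and 1024, with no overlap. Rpl39 rose by 0.70 ± 0.24 (limma adjusted p = 0.034), from 69.6, 85.3, 130, 185 and 189 to 194, 219, 224 and 234, also apart, and the median of the members was -0.03 (6.92% of all genes called higher, 7.96% lower). The call of Rpl39 was lost without any of CA rats 4143 and 4150 or CA rev rats 4148, 4149 and 4151. With 1 member lower and 1 higher, members were called in no larger share than all genes in this comparison.

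In control rats no member passed between the first and the last time. Between controls of 18m and 5j 0 members passed (4 with an unadjusted p under 0.05, median 0.07), and 6.34% of all genes were called. Rpl7l1 (0.41 ± 0.16) and Rps28 (0.36 ± 0.18) had the highest values and Rps4y2 (-0.54 ± 0.27) the lowest. This result depended on scaling, since 16 members were called higher after quantile normalization and 7 after scaling to bright probe sets. Without control 4010 of 5j, 1 member was called.

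Relative to the median gene, TU sections of DEN-CA rats held more ribosomal protein mRNA than the untagged section of the same rat. Over 7 such rats 29 of 42 members rose and Rps4y2 fell, with a median of 0.40 (1.32-fold), against 12.7% of all genes called higher and 17.8% lower. With the rat as a random block 19 rose and 1 fell, and without the rat block 16 rose and 1 fell. Among the other genes of the brightest 10th 7.95% were called higher and 39.3% lower. The rise took in 19 of 28 large and 10 of 14 small subunit members and 24 of the 34 shared probe sets, and 27 of the 29 members also rose in both CA and DEN-CA means. The index was higher in the TU sections of 7 of 7 rats, by 0.09 to 0.79 (median 0.33), while the median of other bright probe sets was lower in 7 of 7, by -0.64 to -0.08.

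Rpl14, a large subunit protein, led the rise in these sections. It ran from 1606 to 2343 (median 1908) in the untagged and from 3166 to 5186 (median 4097) in the TU sections of the 7 rats, without overlap, and rose by 0.99 ± 0.18 (1.98-fold, limma adjusted p = 0.00073, higher in 7 of 7 rats). Rplp0 ran from 2897 to 4164 (median 3065) and from 3872 to 7736 (median 6226), with slight overlap, and rose by 0.86 ± 0.16. Rpl13a went from 1299 to 1736 (median 1508) in the untagged to 2117 to 4295 (median 2591) in the TU sections, again apart, and rose by 0.83 ± 0.17. Rpl23a (0.74 ± 0.16), Rps27l (0.73 ± 0.13) and Rpl21 (0.72 ± 0.17) came next, and Rpl3 (0.67 ± 0.14) and Rpsa (0.65 ± 0.14) rose too. The rat averages of the p53 target Rps27l ran from 292 to 409 untagged and from 436 to 700 in TU sections. Several TU sections of 1 rat were averaged first. The averages did not overlap, which need not hold for single sections. Rps27l was not among the members that rose in CA liver. Rps6 (0.19 ± 0.10, limma adjusted p = 0.15, higher in 4 of 7 rats) and Rpl7l1 (0.28 ± 0.13, adjusted p = 0.099) did not pass. Rps4y2 fell by 1.01 ± 0.23 (limma adjusted p = 0.0033), from 61.4 to 167 in the untagged to 23.4 to 69.3 in the TU sections, and was lower in 6 of 7 rats. Leaving out 1 rat gave 20 (without rat 4104) to 33 (without rat 4107) called members. The index of rat 4104 rose the most, by 0.79. Its untagged section carried the B suffix and its TU section did not, and the part of the suffix was not tested.

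In CA rats without DEN the TU sections did not differ from the untagged ones in any member by the test. Over 9 rats 0 members passed (3 with an unadjusted p under 0.05, median 0.00), and 3.88% of all genes were called. The index was higher in the TU section of 7 of 9 rats and ran from -0.60 to 0.22 (median 0.07). The lowest value belonged to rat 4137, whose untagged section was the high one at 12m, and without this rat 8 members were called. That count is given without direction, and the share of all genes called without this rat was not set beside it. Rpl14 was higher in 7 of 9 of the rats (0.36 ± 0.16, limma adjusted p = 0.18), and Rps29 (-0.25 ± 0.09) and Rpl7 (-0.23 ± 0.08) had the lowest values. The TU effects of DEN-CA and CA rats differed for 0 members after adjustment (0% of all genes), although 35 members had an unadjusted p under 0.05 and the median difference was 0.44. The TU rats of the CA arm came from 12m, 18m, 18 and 18m rev and those of the DEN-CA arm from 9m, 12m and 12m rev, so both arms shared only 12m, and the part of time in the difference was not tested. In PERI sections of 5 rats 0 members passed (0 with an unadjusted p under 0.05 as well, median -0.17, 0% of all genes), again 0 without rat 4137 (median -0.06), and the index differences were -0.63, -0.15 and 0.18 in CA rats and -0.24 and 0.07 in DEN-CA rats.

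**Figure D4:**
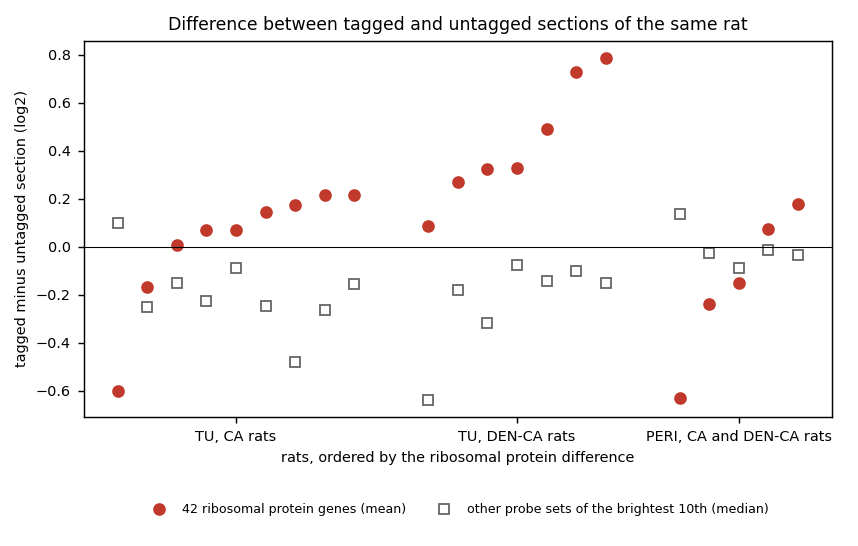
Tagged minus untagged section of the same rat, as the mean over 42 ribosomal protein genes (filled circles) and the median of other probe sets of the brightest 10th (open squares), on the log2 scale. All 7 DEN-CA rats lie above 0 for the ribosomal proteins and below 0 for the other bright probe sets, and rat 4137 is the lowest circle of the TU sections of CA rats and of the PERI sections.

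The machinery that makes and uses ribosomes was described with the same counts, to be read against 18.8% of all genes called higher and 22.6% lower in the mean CA effect. There 17 of 40 genes of ribosome biogenesis rose and 4 fell (median 0.14), led by Nob1 (0.67 ± 0.08), an endonuclease that completes the small subunit RNA, and Sbds (0.53 ± 0.08), which readies the large subunit, with Rcl1 (-0.48 ± 0.04), a factor of early small subunit processing, among those that fell. Subunits and factors of RNA polymerase I rose in 4 of 8 (median 0.12), elongation factors in 4 of 8 (median 0.18, Eef2 0.25 ± 0.05), initiation factors in 15 of 29 with 2 lower (median 0.20, Eif4a2 0.37 ± 0.05), and other mRNAs of the oligopyrimidine class in 8 of 12 (median 0.27, Nap1l1 0.40 ± 0.05). Cytosolic aminoacyl-tRNA synthetases rose in 11 of 19 (median 0.22, Sars1 0.73 ± 0.06). Mitochondrial ribosomal proteins, which belong to another ribosome, rose in 43 of 71 and fell in 1 (median 0.20, Mrps18b 0.87 ± 0.06). Of the mTOR and Myc regulators 5 of 19 rose and 2 fell (median -0.03), the former including 2 brakes on mTOR output, Ddit4 (1.05 ± 0.12) and Eif4ebp1 (0.69 ± 0.07). The DEN-CA mean gave 15 higher and 2 lower of 40 for biogenesis, 46 of 71 for mitochondrial ribosomal proteins and 12 of 19 for the synthetases.

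In TU sections of DEN-CA rats, where 12.7% of all genes were called higher and 17.8% lower, 35 of 40 biogenesis genes rose and 1 fell (median 0.79), led by Ebna1bp2 (1.58 ± 0.25), Utp4 (1.39 ± 0.21) and Bysl (0.97 ± 0.13), all factors of pre-ribosome assembly. RNA polymerase I rose in 4 of 9, initiation factors in 16 of 29 with 1 lower, elongation factors in 3 of 8, other oligopyrimidine mRNAs in 4 of 12 and mitochondrial ribosomal proteins in 26 of 71 (median 0.29). Of the mTOR and Myc regulators 2 rose and 4 fell, Myc among the latter (-0.82 ± 0.22, limma adjusted p = 0.009). In TU sections of CA rats 1 of 40 biogenesis genes rose.

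Macrophage and Kupffer cell markers were lower in the CA and DEN-CA means. In the mean CA effect 8 of 9 fell and none rose (median -0.43, Cd14 -1.15 ± 0.09), against 22.6% of all genes called lower. In the DEN-CA mean 9 of 9 fell, and in CA rats labelled 18 1 of 9 did. Of the other genes of the brightest 10th 26.7% and 11% were called lower in these 2 comparisons. Shares of all genes called lower there were not set beside these counts. The summed scaled intensity of 10 such markers on the array ran from 5055 to 6962 in CA rats of 12m and from 6872 to 9901 in their controls, and from 9438 to 13230 in CA rats and from 13680 to 18190 in controls of 18m rev. Those 3 controls also had lymphocyte marker sums of 4479, 6382 and 22750 against 2805 to 4833 in the CA rats, cell division sums of 1338 to 2964 against 1045 to 1418, and red blood cell sums of 5026 to 15190 against 3912 to 6911. Lymphocyte markers fell in 4 of 12 and 7 of 12 in the CA and DEN-CA means, stellate cell markers in 4 of 9 and 5 of 9. Bile duct and progenitor markers rose in 3 of 8 in both, and hepatocyte markers fell in 1 of 11 (1 rose) and 6 of 11. Cell division markers rose in 0 of 13 in both means and fell in 0 and 1. Red blood cell markers fell in 1 of 3 in the CA mean, and of 4 pancreatic acinar markers tested none passed in either mean. In TU sections of DEN-CA rats 7 of 9 macrophage markers fell (median -1.01), with sums of 3073 to 3732 in TU sections of DEN-CA rats of 9m and 4823 to 6709 in untagged ones, while 3 of 9 stellate cell and 2 of 14 cell division markers rose and 3 of 11 hepatocyte and 2 of 3 red blood cell markers fell. Bile duct and progenitor markers rose there in 2 of 7, with sums of 4505 to 5012 in TU sections of 9m against 2736 to 3657 in untagged ones, and of 7938 and 8505 in the 2 TU sections of rat 4111 of 12m rev against 2005 to 3671 in untagged ones of its group. Of those 2 sections 1 had a pancreatic acinar marker sum of 23240 and the other 302.7, while TU sections of DEN-CA rats of 9m and 12m had 241.3 to 431.1. Without rat 4111 30 members were called in the TU sections of DEN-CA rats, as with it. In DEN-CA rats of 12m rev against 12m, where members fell, 7 of 9 macrophage and 5 of 12 lymphocyte markers rose (Ptprc 1.03 ± 0.21, Cd8a 1.43 ± 0.35, Ccl5 1.77 ± 0.44). Of the other genes of the brightest 10th 9.41% were called higher there. Those genes were not matched to the markers in brightness, and the share of all genes called higher was not set beside the marker counts. The lymphocyte sum ran from 2501 to 11980 in the rev rats and from 1796 to 2396 in the others, and the cell division sum from 954.7 to 2871 and from 806.7 to 1167. No marker was listed at 0 on any array, and the part of these cells in the ribosomal protein changes was not tested.

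The direction of the members relative to the other genes held under each scaling for the main comparisons, but the counts did not. With no scaling the mean CA effect had 3 members higher and 2 lower and a median of 0.11, against -0.18 for all genes. Quantile normalization gave 36 higher and 1 lower (median 0.28) and scaling to other bright probe sets 39 higher and 1 lower (median 0.37). For DEN-CA the same 3 settings gave 38, 38 and 38 higher. For TU sections of DEN-CA rats they gave 10, 39 and 40 higher, each with 1 lower. With the log2 median of each array as a covariate the mean CA effect again had 36 higher and 1 lower. The share of all genes called was not set beside these counts, so they show only how the member calls moved.

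**Figure D5:**
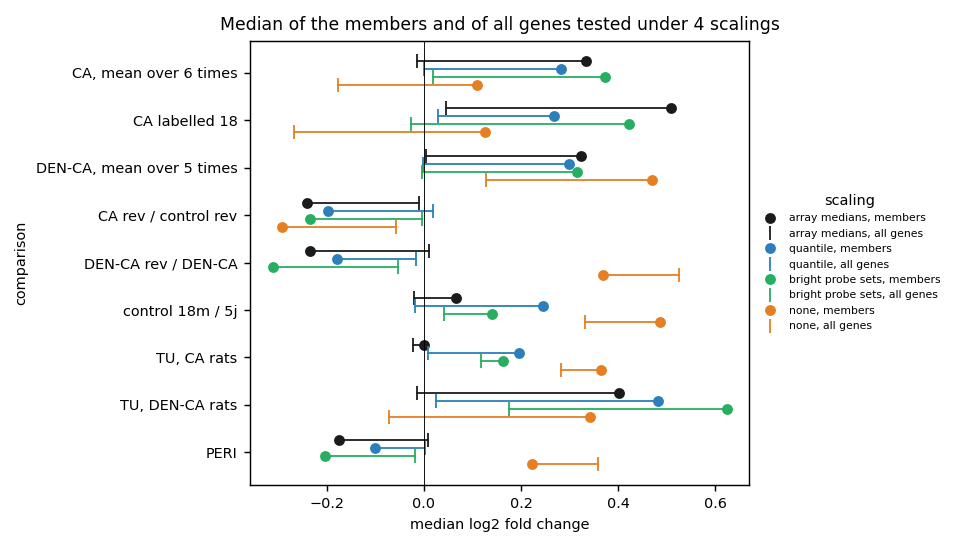
Median log2 fold change of 42 ribosomal protein genes (circles) and of all genes tested (ticks), joined by a line, in 9 comparisons under 4 scalings of the arrays. In the CA and DEN-CA means, CA labelled 18 and TU sections of DEN-CA rats the circle lies to the right of the tick under each scaling, while for DEN-CA rev against DEN-CA it lies to the left under each, on the positive side of 0 only without scaling.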

How the data were processed

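RNA from sections of rat liver was hybridized to Affymetrix arrays, and the deposited values are linear probe set intensities made with MAS5, per the submitters' processing notes; its version is not given in the sources used here. Gene names came from the array annotation, in which 12783 of 15922 probe sets name 1 gene, 312 several and 2827 none. Here each array was scaled to the median of the array medians (99.35), and log2(scaled intensity + 25) was used. A probe set was tested if it exceeded the 40th percentile of its own array on at least 3 arrays. The 30 untagged groups entered 1 fit with limma 3.58.1 in R 4.3.3 (lmFit, eBayes with trend; 118 residual degrees of freedom), and p-values were adjusted by Benjamini-Hochberg over all 12393 probe sets tested and called at 0.05. TU and PERI sections were compared with the untagged section of the same rat through within-rat differences (16 and 5 rats), the pairing coming from the rat numbers in the labels. Several sections of 1 rat were averaged first.

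The fits were tested on simulated data with independent noise for each probe set, which cannot show how counts of members that vary together behave. The genes named in a comparison were up to 6 called members with the largest change in each direction, a fixed panel of core members, the paralogs, and up to 3 genes of each other list with the smallest p; Rpl39 and other single members outside this rule were named after their values were seen. The members and lists were chosen with earlier results of these data known. Alternatives were other scalings, offsets, filters and probe set rules, array weights, the B suffix, single times and single rats left out, and fits without the rat block. Figures were drawn with matplotlib 3.10.9 in Python 3.11.15, with pandas 2.3.3. The precision is limited by 3 to 6 rats in a group.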

Additional observations from a re-analysis of the deposited data

Results flagged for a closer look

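One of 32 groups of values held a sample far from the others by Dixon's criterion, which chance alone meets in about 1 in 20 groups. In CA rats the TU section less the untagged section of the same rat, in the mean over 42 ribosomal protein genes, ran from -0.603 to 0.217 over 9 rats. The value of -0.603 belonged to rat 4137, and the nearest was -0.169. The untagged section of this rat had the highest index of the CA rats of 12m (12.07), and its PERI section less the untagged one was -0.63.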

How the results depend on the processing

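With no scaling of the arrays 5 members were called in the mean CA effect, 0 in CA labelled 18, 2 in TU sections of CA rats, 11 in those of DEN-CA rats, 1 in CA rev against CA at 18m and, reversed to higher, 1 in DEN-CA rev against DEN-CA at 12m. In the last the log2 change turned to 0.22 for Rps3a, 0.15 for Rpl19, 0.14 for Rps16, 0.066 for Rpl12, 0.047 for Rps15 and 0.011 for Rpl4, and without scaling Rpl27 (-0.0075) and Rpl34 (-0.049) turned in the mean CA effect and Rpl34 (-0.0092) in CA labelled 18. At 3m without scaling 9 members were called lower in CA rats, against 30 higher with it. At 18m 6 were called after quantile normalization, 7 after scaling to bright probe sets and 10 with array weights, most of them higher. Quantile normalization, scaling to bright probe sets and array weights gave 12, 4 and 4 calls in CA rev against CA, the latter 2 gave 23 and 10 in DEN-CA rev against DEN-CA, and the array median as a covariate gave 3 there. Quantile normalization gave 16 calls with age, 1 in CA rev against control rev and 1 in TU sections of CA rats, where array weights gave 10. Scaling to bright probe sets gave 7 calls with age and the B suffix as a covariate 8. For DEN at -8 quantile normalization, scaling to bright probe sets, array weights and the B suffix gave 1 call each. Over arrays without the B suffix DEN-CA had 14 calls, and Rpl37a turned to -0.10. Without the replicate block, TU sections of DEN-CA rats had 17 calls in place of 30, and 20 with the rat as a random block. Leaving out 1 rat gave 0 to 1 calls for DEN at -8, 1 to 2 for CA rev against CA, 1 to 15 for DEN-CA rev against DEN-CA, 0 to 1 with age and 0 to 8 in TU sections of CA rats. The causes were not tested, and the share of all genes called was not set beside these counts. The alternatives with only arrays with or without the B suffix, with the array median as a covariate and with only rats without rev were chosen after seeing the data. A fit of only the groups of the contrast was not run for PERI.

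Of the alternative values of the main counts, single rats left out included, 564 stayed within 1.5 times, 33 moved by more and 1 reversed. For counts at single times 294 stayed, 76 moved and 4 reversed, and for single members 2095 stayed, 180 weakened and 10 reversed. MAS5 intensities cannot show whether all mRNA per cell changed, since each change is relative to the median gene. Ribosomal protein genes have many processed pseudogenes of near-identical sequence, and how far probe sets read these was not tested. The dim Rps4y2 lies near the offset, which shrinks its changes.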
